A study of Homo sapiens with 6 samples.

Results

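The genes described here are 9 regulators of kidney development: PAX2, PAX8, LHX1, SIX2, EYA1, WT1, GATA3, SALL1 and OSR1. They were taken by name from the 20033 protein-coding genes of the GENCODE annotation of the human genome build hg38. For each gene, the peaks of 3 ChIP-seq peak lists were collected that overlapped the gene body or the 10 kb on either side of it, a stretch called its window below. The length of the marked domain at each gene was then measured as a clue to whether its chromatin looked like that of an active or of a silent gene. No RNA value was used here, so a marked gene is described as marked and not as transcribed.

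The libraries came from cells labelled HepG2, a human liver tumour line, and ChIP-seq reads out the DNA recovered with histones that an antibody has bound. Pan antibodies were used against acetylated lysine (Kac), the common mark of open chromatin, and against benzoylated lysine (Kbz), an acylation that forms when cells take up sodium benzoate (SB), and neither tells which histone or which residue carried the mark. The series holds 6 ChIP-seq libraries, 1 per group, of which the lists of control Kac (no SB), SB Kac and SB Kbz (both 10 mM SB for 24 h) were used. Per the labels, the control Kbz library has no peak list, so Kbz without SB is not described, and the input libraries were not analysed here. With 1 library per group there are no replicates and no tests, so every value below describes a single library of unknown sequencing depth, and a difference between lists cannot be set against replicate error. Control Kac comprised 70326 peaks, SB Kac 63282 and SB Kbz 24308, of which 43, 39 and 17 lay in the windows of the 9 genes.

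Before the values are read, the label of the cells was checked against 10 genes of secreted liver products, the defining markers of hepatocytes. ALB (albumin) and APOB (apolipoprotein B) had no peak in any list. Of 12 liver transcription factors, 11 had peaks of all 3 lists and FOXA2 had none. Of the 10 liver products, 7 had a control Kac peak in their window, 8 had SB Kac and 4 had Kbz, against 84.5%, 83.1% and 75.2% of all protein-coding genes. Within 3 kb of the transcription start site (TSS) 4, 3 and 1 had one, against 72.8%, 71.9% and 60.3% of all genes. The bases under peaks in their windows added up to 17860, 16385 and 4138 bp in control Kac, SB Kac and SB Kbz, with medians of 1483, 1446 and 0 bp, against 4413, 4272 and 1675 bp over all protein-coding genes. The liver products were thus marked over shorter lengths and less at promoters than genes at large, so these 10 genes do not bear out the label. Peaks at 10 genes in single libraries do not settle which cells were used. The liver transcription factors had median shares of the window above those of all genes in each list. Of these 12 factors, 9, 9 and 7 had a peak within 3 kb of the TSS in control Kac, SB Kac and SB Kbz. A peak lay over the TSS itself at 6, 6 and 2 of them, against 59.1%, 60.4% and 45.8% of all genes. The factors were thus marked over a larger share of the window than genes at large. Their windows were shorter, with a median of 36890 bp against 47471 bp over all genes. Their median lengths under peaks, 7202, 7796 and 2424 bp in control Kac, SB Kac and SB Kbz, were also above the all-gene medians. Over the TSS, the counts in both Kac lists were near the all-gene shares, and only Kbz, at 2 of 12, was clearly lower. The part that the low marking of liver products plays in the results below was not tested, and the cells are called by their label only.

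The mammalian kidney forms from the intermediate mesoderm, in which OSR1, LHX1, PAX2 and PAX8 act early, and GATA3 acts in the nephric duct. SIX2, EYA1, SALL1 and WT1 act in the nephron progenitors, the cap of mesenchyme that gives rise to the tubules and glomeruli. Such developmental regulators usually lie in long stretches rich in CpG, which are held silent by Polycomb proteins in most other cells and carry long acetylated domains where the genes are in use.

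Promoter sequences are shown for starts marked in all lists, in some and in none, since they let marked and unmarked starts be compared. They come from RefSeq (GRCh38.p14) and run from 250 bases before to 50 bases after the start. Of the 9 genes, 5 (PAX2, PAX8, SIX2, WT1 and GATA3) matched the table, with 14 promoters. Capitals mark every CpG. The starts of SIX2 and WT1 lay under peaks of all 3 lists:
SIX2, chr2:45009403-45009702, minus strand: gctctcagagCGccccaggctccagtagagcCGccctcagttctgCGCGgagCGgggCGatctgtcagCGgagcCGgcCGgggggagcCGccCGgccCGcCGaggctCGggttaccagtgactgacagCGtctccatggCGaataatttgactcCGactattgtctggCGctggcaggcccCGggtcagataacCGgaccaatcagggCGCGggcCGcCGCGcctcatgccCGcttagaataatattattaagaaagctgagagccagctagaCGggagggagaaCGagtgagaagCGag
WT1, chr11:32435490-32435789, minus strand: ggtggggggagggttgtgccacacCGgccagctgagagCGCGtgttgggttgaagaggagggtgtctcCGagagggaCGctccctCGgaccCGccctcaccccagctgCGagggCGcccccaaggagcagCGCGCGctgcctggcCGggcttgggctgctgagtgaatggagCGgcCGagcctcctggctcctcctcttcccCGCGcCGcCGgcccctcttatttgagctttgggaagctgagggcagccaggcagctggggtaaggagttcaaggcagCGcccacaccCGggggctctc
The canonical start of PAX2 lay under both Kac lists but not under Kbz, and that of PAX8 under none:
PAX2, chr10:100745332-100745631, plus strand: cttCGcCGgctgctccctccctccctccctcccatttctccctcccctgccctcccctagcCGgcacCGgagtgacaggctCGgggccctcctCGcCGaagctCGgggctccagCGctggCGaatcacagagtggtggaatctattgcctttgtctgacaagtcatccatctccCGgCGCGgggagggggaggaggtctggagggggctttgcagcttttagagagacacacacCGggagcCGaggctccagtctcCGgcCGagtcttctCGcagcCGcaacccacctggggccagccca
PAX8, chr2:113278872-113279171, minus strand: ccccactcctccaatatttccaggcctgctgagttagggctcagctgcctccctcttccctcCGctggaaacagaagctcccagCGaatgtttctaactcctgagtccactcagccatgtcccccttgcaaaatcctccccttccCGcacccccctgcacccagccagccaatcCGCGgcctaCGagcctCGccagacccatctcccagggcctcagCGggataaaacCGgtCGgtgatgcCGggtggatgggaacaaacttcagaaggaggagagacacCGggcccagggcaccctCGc
Of GATA3, an upstream start lay under all 3 lists and the canonical start under none:
GATA3 upstream, chr10:8045083-8045382, plus strand: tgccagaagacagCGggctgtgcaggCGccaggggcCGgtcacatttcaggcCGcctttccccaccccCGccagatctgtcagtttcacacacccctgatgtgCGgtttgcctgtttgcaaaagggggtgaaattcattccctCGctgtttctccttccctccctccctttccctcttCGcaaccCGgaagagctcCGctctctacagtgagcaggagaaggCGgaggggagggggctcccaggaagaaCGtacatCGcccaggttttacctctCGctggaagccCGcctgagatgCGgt
GATA3 canonical, chr10:8054438-8054737, plus strand: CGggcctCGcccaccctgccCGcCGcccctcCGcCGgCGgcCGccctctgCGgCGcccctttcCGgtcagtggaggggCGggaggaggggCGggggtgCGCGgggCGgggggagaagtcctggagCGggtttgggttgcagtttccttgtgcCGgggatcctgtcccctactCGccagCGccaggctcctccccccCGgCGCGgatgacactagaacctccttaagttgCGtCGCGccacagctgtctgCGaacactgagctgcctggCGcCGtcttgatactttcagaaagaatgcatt

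CpG number alone did not separate the marked from the unmarked starts among these 6 sequences. SIX2 held 29 CpG, WT1 21, PAX2 19 and the upstream GATA3 start 16, all of which were marked in at least the Kac lists. PAX8 held 13 CpG and was unmarked, but so was the canonical GATA3 start with its 29 CpG. Over the 35116 promoters of the table the median was 14 CpG, and starts under a peak had more than starts outside one: the medians were 24 against 5 with control Kac, 25 against 4 with SB Kac and 26 against 6 with SB Kbz. The GC box GGGCGG, searched on both strands, occurred 5 times in the canonical GATA3 promoter, 2 times in that of SIX2 and 1 time in that of WT1, and 45.0% of all promoters held at least 1. CCAAT occurred 2 times at PAX8 and 1 time at SIX2, against 34.6% of all promoters with a match, and a CCAAT match and a GC box match can share bases. TATAAA (11.5% of all promoters) and CACGTG (7.26%) had no match in the 6 sequences.

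All 9 genes had at least 1 peak of each list in their window, 9 of 9 in control Kac, SB Kac and SB Kbz. Over all protein-coding genes these shares were 84.5%, 83.1% and 75.2%, and 74.4% had peaks of all 3 lists, so having a peak is common and says little about these genes. At the promoter, within 3 kb of the canonical TSS, 7 genes had a control Kac peak, 7 had SB Kac and 6 had Kbz, against 72.8%, 71.9% and 60.3% of all genes. A peak lay over the canonical TSS itself at 5, 6 and 4 of the 9 genes, against 59.1%, 60.4% and 45.8% of all genes. In the full lists, the genes differed from the rest of the annotation more in the length of what was marked. All-gene lengths were computed for the full lists only, so whether this contrast holds among the stronger peaks was not tested. The median length under peaks was 8326 bp in control Kac, 10883 bp in SB Kac and 2812 bp in SB Kbz, and as a share of the window it was 16.7%, 21.8% and 5.06%, against 7.02%, 6.88% and 2.37% over all genes.

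**Figure D1:**
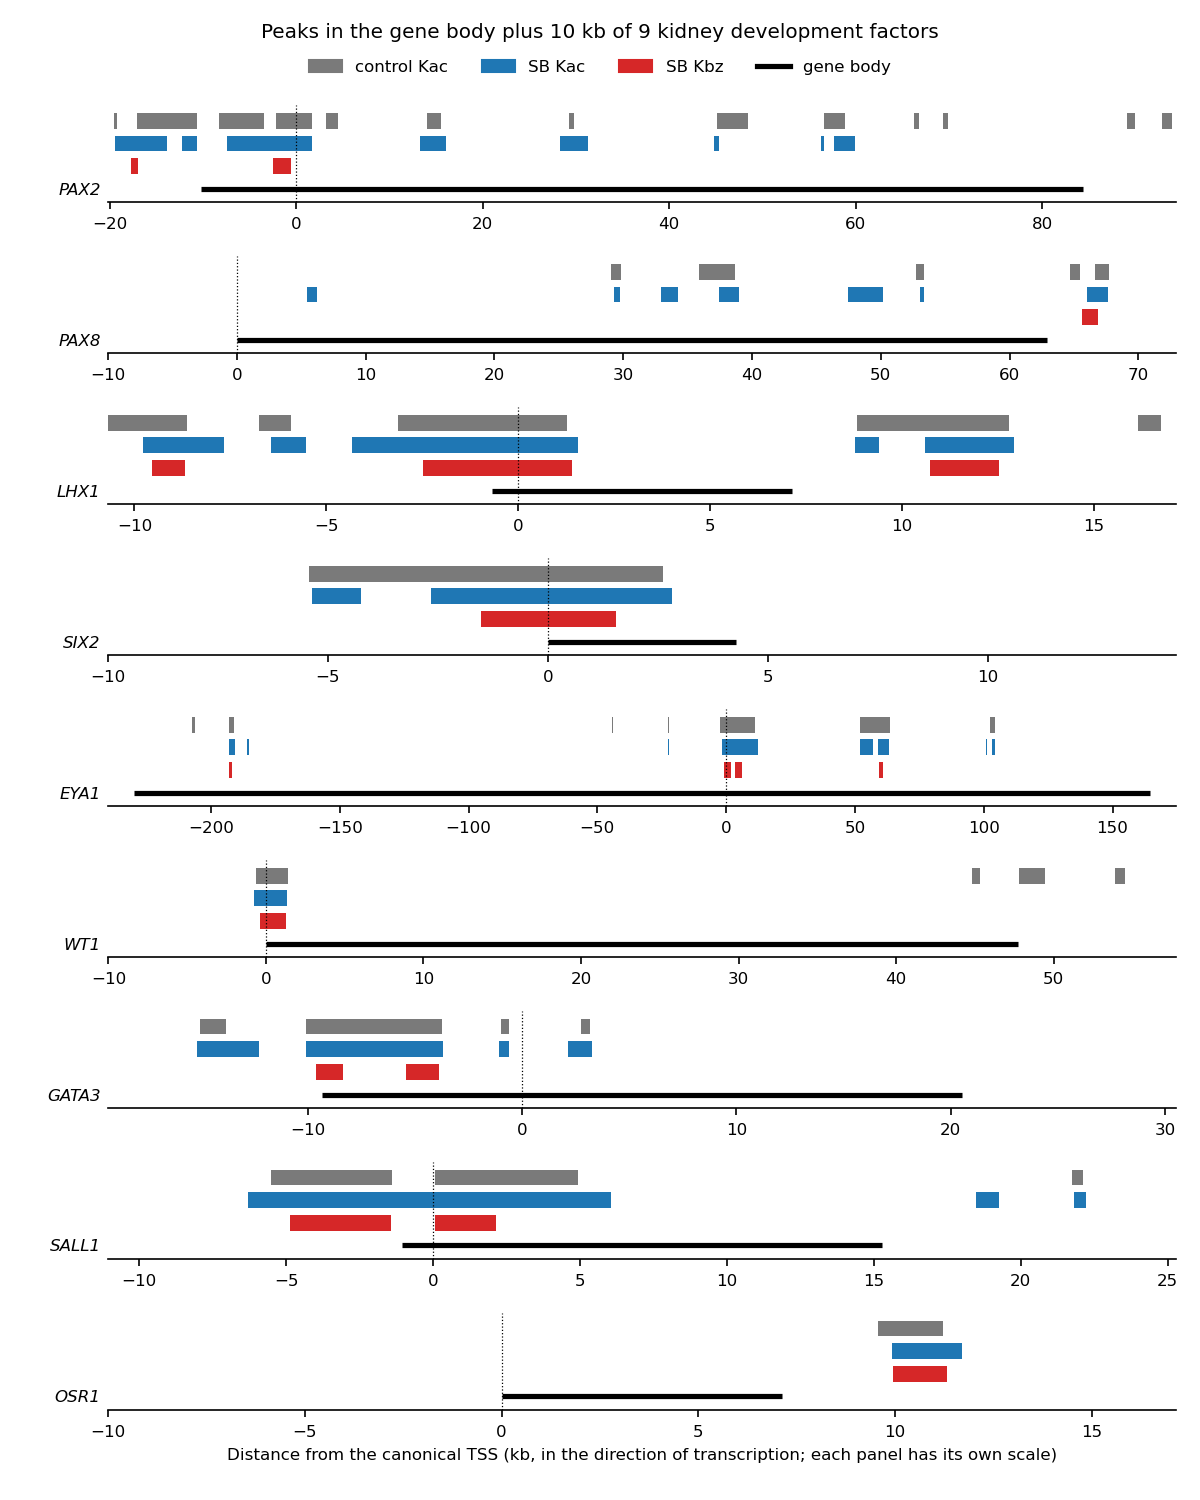
Peaks of the 3 lists at the 9 genes, drawn as bars against the distance from the canonical TSS in kb, 1 panel per gene with its own scale, with control Kac in grey, SB Kac in blue, Kbz in red and the gene body as a black line (peaks are cut at the ends of the window). PAX2 carries 13 control Kac and 8 SB Kac peaks but 2 Kbz peaks, whereas OSR1 has 1 peak per list, all of them beyond its 3′ end.

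**Figure D2:**
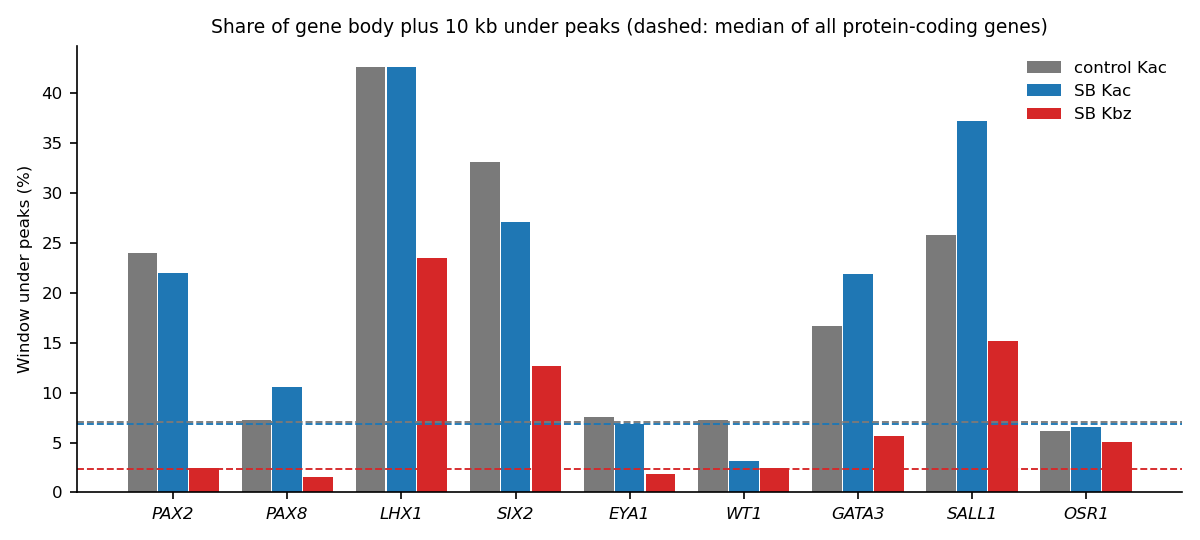
Bars give the share of each gene's window (gene body plus 10 kb on each side, in percent) under peaks of control Kac, SB Kac and SB Kbz, and dashed lines the median of all protein-coding genes in each list. LHX1 has the highest share in control Kac (42.6%), SB Kac (42.6%) and Kbz (23.5%).

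Of the early factors of the intermediate mesoderm and nephric duct, LHX1 had the highest share of its window under peaks in every list, whereas OSR1 had the lowest share in the Kac lists and PAX8 the lowest in Kbz. LHX1, a LIM homeodomain factor (ENSG00000273706, chr17:36936785-36944612, plus strand), had 11867 bp under control Kac, 11858 bp under SB Kac and 6536 bp under Kbz. These are 42.6%, 42.6% and 23.5% of its window, which put it at percentiles 96.2, 96.6 and 98.1 of all genes. Its promoter peak was 4417 bp long in control Kac, 5895 bp in SB Kac and 3883 bp in Kbz (chr17:36934981-36938863), and in each list it covered 5 of the 6 annotated LHX1 starts. The same peak also covered the start of LHX1-DT, a divergent non-coding transcript. The other Kbz peaks lay upstream (872 bp) and over the start of AATF (1781 bp), the next gene downstream, whose product is tied to apoptosis and ribosome formation. The AATF peak was the strongest Kbz peak of the window, at percentile 81.3 of the Kbz list by fold, the ratio of read density over background that the peak caller gave, against percentile 48.7 for the LHX1 promoter peak. Part of the length counted for LHX1 is therefore a neighbour's promoter.

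OSR1, a zinc finger factor among the first to mark the intermediate mesoderm (ENSG00000143867, chr2:19351485-19358623, minus strand), had 1 peak in each list, and none of them touched the gene. The peak was 1663 bp long in control Kac, 1774 bp in SB Kac and 1372 bp in Kbz (chr2:19347309-19348680). It lay 9560, 9924 and 9943 bp downstream of the OSR1 TSS, past the end of the gene, over the starts of the non-coding gene LINC01376 and of the microRNA gene MIR4757. It stood at percentiles 74.5, 94.5 and 94.6 of its list by fold. No peak of any list lay over the body, the promoter or either of the 2 annotated starts of OSR1, so OSR1 counts as marked only through the 10 kb beside it.

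PAX2, a paired-box factor of the nephric duct and ureteric bud (ENSG00000075891, chr10:100735396-100829944, plus strand), was broadly acetylated, in peaks of low to moderately high fold. It had 13 control Kac peaks of 27440 bp in all and 8 SB Kac peaks of 25159 bp, 24.0% and 22.0% of its window. The promoter peak was 3893 bp long in control Kac (chr10:100743366-100747258) and 9134 bp in SB Kac (chr10:100738111-100747244). In control Kac this stretch was broken by a gap of 1256 bp from the neighbouring peak of 4758 bp. The longest control Kac peak at PAX2, of 6464 bp, lay further upstream. The strongest peak of the window stood at percentile 73.0 by fold in control Kac and 68.9 in SB Kac. Kbz covered 2774 bp, 2.42% of the window, in 2 peaks of low fold. The longer one, of 1964 bp (chr10:100743108-100745071), ended 511 bp upstream of the canonical TSS, and none of the 8 annotated PAX2 starts lay under Kbz, against 6 under control Kac and 5 under SB Kac.

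PAX8, its close relative, which acts with PAX2 in the kidney and is a master regulator of the thyroid (ENSG00000125618, chr2:113215997-113278921, minus strand), had no peak at its canonical promoter in any list. Its 5 control Kac peaks covered 6032 bp and its 7 SB Kac peaks 8770 bp, or 7.27% and 10.6% of the window, against all-gene medians of 7.02% and 6.88%. The peak nearest to the canonical TSS lay 29063 bp away in control Kac and 5440 bp away in SB Kac. The single Kbz peak in the window (chr2:113212051-113213293, 1243 bp) lay downstream of the gene, near the start of PAX8-AS1, a non-coding gene on the other strand, at percentile 9.37 of its list by fold. Its −log10 q was 1.72, which is weaker than the stated false discovery rate of 0.01. Of its 10 annotated starts, 1 lay under control Kac, in a peak of 2773 bp, and none under SB Kac or Kbz. SB Kac peaks of 1586 and 1341 bp lay within 3 kb of other PAX8 starts. Of the 9 genes, PAX8 came closest to an unmarked canonical promoter inside a gene with scattered acetylation.

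GATA3, a zinc finger factor of the nephric duct that is also known from T cells and breast (ENSG00000107485, chr10:8045378-8075198, plus strand), was marked at an upstream start and not at the canonical one. A Kac domain of 6330 bp in control (chr10:8044607-8050936) and of 6371 bp after SB (chr10:8044622-8050992) began at the 5′ end of the gene. The canonical TSS, at 8054688, lay outside every peak, 614 bp from the nearest control Kac peak, 607 bp from the nearest SB Kac peak and 3877 bp from the nearest Kbz peak. The Kac peaks on either side of it were short, 371 and 411 bp in control Kac and 479 and 1141 bp in SB Kac. Kbz took up both ends of the upstream domain, with a peak of 1261 bp (chr10:8045071-8046331) and a peak of 1551 bp (chr10:8049261-8050811) parted by 2929 bp. In all, 8326 bp were under control Kac, 10883 bp under SB Kac and 2812 bp under Kbz, or 16.7%, 21.8% and 5.64% of the window. A count at the canonical start alone would miss this domain.

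The regulators of the nephron progenitors were marked at their promoters in all lists. SIX2, the homeodomain factor that keeps these progenitors from differentiating (ENSG00000170577, chr2:45005182-45009452, minus strand), had most of its body under a single domain. The control Kac peak measured 8033 bp (chr2:45006845-45014877), the SB Kac peak 5490 bp (chr2:45006624-45012113) and the Kbz peak 3075 bp (chr2:45007908-45010982), each over its only annotated start. A second SB Kac peak of 1096 bp lay beyond a gap of 1599 bp, near the start of a non-coding gene (ENSG00000231156), so the control domain was called as 2 peaks after SB. The promoter peak was strong in each list, at percentiles 85.3, 96.4 and 83.7 by fold. Together 33.1%, 27.1% and 12.7% of the window were marked, at percentiles 92.1, 88.8 and 91.5 of all genes.

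SALL1, a zinc finger repressor needed for outgrowth of the ureteric bud (ENSG00000103449, chr16:51135982-51152334, minus strand), had the largest gain in length of a promoter peak between the Kac lists. In control Kac its promoter carried peaks of 4841 bp (chr16:51146351-51151191) and 4124 bp (chr16:51152652-51156775), with a gap of 1460 bp over the canonical TSS at 51151270. In SB Kac 1 peak of 12341 bp (chr16:51145212-51157552) spanned this gap and all 6 annotated starts, against 1 start in control Kac. Kbz, from the same SB-treated cells, had the gap again: peaks of 2085 bp (chr16:51149118-51151202) and 3441 bp (chr16:51152688-51156128) stood 1485 bp apart and ended 68 and 1418 bp from the canonical TSS. The window held 9362 bp of control Kac, 13538 bp of SB Kac and 5526 bp of Kbz, or 25.8%, 37.2% and 15.2%. Whether the gap was closed in the chromatin or by the joining of weak stretches in the peak call cannot be told from a peak list.

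WT1, the zinc finger factor of Wilms tumour and of podocytes (ENSG00000184937, chr11:32387775-32435564, minus strand), carried a short and strongly acetylated promoter peak. It measured 2059 bp in control Kac (chr11:32434135-32436193), 2117 bp in SB Kac (chr11:32434199-32436315) and 1636 bp in Kbz (chr11:32434292-32435927). By fold it stood at percentiles 95.3 and 93.3 of the Kac lists but at 48.9 of the Kbz list. The peak also lay over the start of WT1-AS, a non-coding transcript that leaves the same promoter on the other strand. In SB Kac and Kbz it was the only peak of the window. Control Kac had 3 more, of 619, 1665 and 548 bp, at and beyond the 3′ end of the gene, so the marked length was 4891 bp in control Kac, 2117 bp in SB Kac and 1636 bp in Kbz. WT1 thus had the shortest Kac promoter peak of the 6 genes with a peak at the promoter in all 3 lists.

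EYA1, a coactivator and phosphatase that works with homeodomain partners such as SIX2 (ENSG00000104313, chr8:71197433-71592025, minus strand), had the longest single Kac peaks of the 9 genes. Its promoter peak measured 13584 bp in control Kac and 13725 bp in SB Kac, both at percentile 99.7 of all peaks of their list by length. A further domain inside the gene, which began 51864 bp downstream of the canonical TSS in control Kac, was 1 peak of 11859 bp there and 2 peaks of 3996 and 5216 bp in SB Kac. Kbz was far more limited, with a promoter peak of 2749 bp, a peak of 2476 bp over other EYA1 starts 3510 bp downstream of the canonical TSS, 1 peak of 1276 bp in the internal domain and 1 of 1274 bp in an intron 191661 bp upstream of the canonical TSS. That upstream site was also marked in control Kac (2075 bp) and SB Kac (2402 bp), at percentiles 89.9 and 94.0 by fold. The window is very long, at percentile 97.4 of all genes, so the 31215, 28466 and 7775 bp under peaks were 7.53%, 6.87% and 1.88% of it. Of the 24 annotated starts, control Kac covered 13, SB Kac 19 and Kbz 11.

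In order to set the genes beside the rest of the genome by domain length, the longest peak within 3 kb of the canonical TSS was compared with that of all genes that had one. In control Kac the lengths were 13584 bp at EYA1, 8033 bp at SIX2, 4841 bp at SALL1, 4417 bp at LHX1, 3893 bp at PAX2, 2059 bp at WT1 and 411 bp at GATA3. In SB Kac they were 13725 bp at EYA1, 12341 bp at SALL1, 9134 bp at PAX2, 5895 bp at LHX1, 5490 bp at SIX2, 2117 bp at WT1 and 1141 bp at GATA3. In Kbz they were 3883 bp at LHX1, 3441 bp at SALL1, 3075 bp at SIX2, 2749 bp at EYA1, 1964 bp at PAX2 and 1636 bp at WT1. In each list 5 genes lay above the all-gene median, which was 2613 bp in control Kac, 2731 bp in SB Kac and 1655 bp in Kbz, and they were EYA1, SIX2, SALL1, LHX1 and PAX2 each time. Above the 90th percentile of 5932, 6045 and 3053 bp lay 2, 3 and 3 of them. PAX8 and OSR1 had no promoter peak in any list and GATA3 none in Kbz. The genes therefore fell on both sides of the annotation's median, with long promoter domains at 5 and short or no promoter peaks at WT1, GATA3, PAX8 and OSR1.

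**Figure D3:**
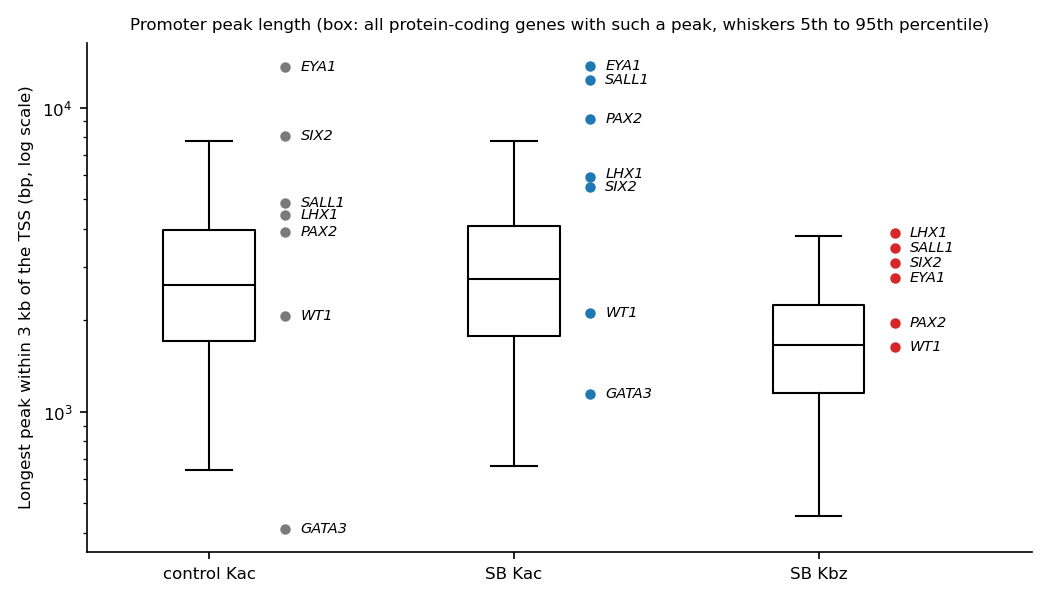
Points give the longest peak within 3 kb of the canonical TSS of each gene (bp, log axis) in control Kac, SB Kac and SB Kbz, beside a box of the quartiles of all protein-coding genes that have such a peak, with whiskers from the 5th to the 95th percentile. EYA1, SIX2, SALL1, LHX1 and PAX2 lie above the median in every list, whereas PAX8 and OSR1 have no point.

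The Kac lists of control and SB-treated cells were then compared at each gene, to ask whether acetylation lay at the same bases with and without SB. The total under peaks was nearly equal, 108829 bp in control Kac and 109151 bp in SB Kac, and 80977 bp were under both, 59.1% of the bases under either. SIX2 (77.1%), GATA3 (76.3%), EYA1 (75.0%) and SALL1 (68.3%) had the highest shares in common. OSR1 (60.8%) and LHX1 (59.5%) followed, and PAX2 (44.9%), WT1 (39.8%) and PAX8 (25.3%) had the lowest. Over the 17208 protein-coding genes with Kac in either condition the median was 53.8%. The length under SB Kac divided by that under control Kac ran from 0.433 at WT1 to 1.45 at PAX8 and SALL1, with more SB Kac at 4 of the 9 genes. The median of this ratio was 0.985 over the 16382 protein-coding genes with peaks of both Kac lists. The low value at WT1 came from the 3 control peaks at its 3′ end, while its promoter peak was of like length in both lists.

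**Figure D4:**
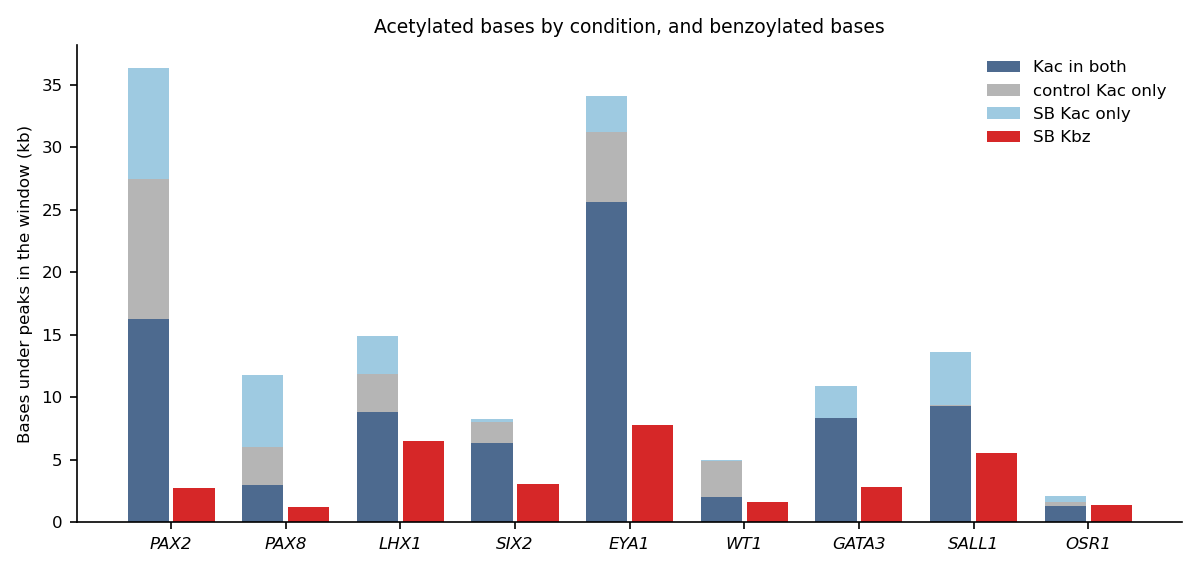
Bases under peaks in the window of each of the 9 genes (kb), as a stacked bar of bases under Kac in both conditions, in control alone and after SB alone, and beside it a bar for SB Kbz. At WT1 most of what is not shared is control Kac (2896 bp, against 122 bp of SB Kac alone), and at SALL1 it is SB Kac (4243 bp, against 67 bp of control Kac alone).

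Kbz was next set beside Kac of the same treated cells. Of the 32749 bp under Kbz peaks at the 9 genes, 32347 bp, or 98.8%, were also under SB Kac, and at 8 genes the share was 100%. The exception was PAX8, where 67.7% of its weak Kbz peak lay inside SB Kac. The share of Kbz inside SB Kac was not computed over all genes, so it cannot be called particular to these 9. The length under Kbz as a share of that under SB Kac differed widely. It was 77.3% at WT1 and at OSR1, 55.1% at LHX1, 46.7% at SIX2 and 40.8% at SALL1, and it was 27.3% at EYA1, 25.8% at GATA3, 14.2% at PAX8 and 11.0% at PAX2. The median of 40.8% was close to the 41.9% of the 14954 protein-coding genes with peaks of both SB lists. PAX2 had the lowest share, with 25159 bp of SB Kac and 2774 bp of Kbz, all of the latter inside SB Kac.

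How firmly the marks stand depends on the gene. With peaks of a −log10 q of at least 5 alone, 6 genes had a control Kac peak in the window, 8 had SB Kac and 5 had Kbz, against 65.9%, 69.2% and 56.7% of all genes. PAX8, GATA3 and OSR1 then had no control Kac peak, PAX2 no SB Kac peak, and PAX8, GATA3, PAX2 and WT1 no Kbz peak. PAX2 counted in control Kac only through an upstream peak of 312 bp, and PAX8 in SB Kac only through an exon peak of 291 bp. The PAX2 promoter peaks dropped out, with −log10 q of 4.37 in control Kac and 4.92 in SB Kac. With the 15000 strongest peaks of each list, 5, 7 and 6 genes had one, against 57.2%, 63.8% and 64.4% of all genes. LHX1, SIX2, EYA1 and SALL1 had peaks of all 3 lists under both choices, but at the threshold of 5 only SIX2 and SALL1 kept Kbz at the promoter. The LHX1 promoter peak then dropped out in control Kac and Kbz, with −log10 q of 4.84 and 4.21, and its window counted through the peak over AATF and an upstream peak. At the threshold of 5, the control Kac length was 27902 bp at EYA1, 8965 at SALL1, 8033 at SIX2, 6020 at LHX1, 2059 at WT1 and 312 at PAX2. All-gene shares at the promoter and all-gene lengths under peaks were not computed at these settings. The loss of promoter peaks and of marked length can therefore not be set against that of genes at large.

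Further kidney factors also had larger shares of their windows marked than genes at large. Of 27 further transcription factors of kidney development, 24 had a control Kac peak in the window, 24 had SB Kac and 23 had Kbz, and 22, 22 and 20 had one at the promoter, against 84.5%, 83.1% and 75.2% and against 72.8%, 71.9% and 60.3% of all genes. Their median shares of the window were 20.4%, 25.4% and 3.76% in the order control Kac, SB Kac and Kbz. Long stretches under SB Kac were 152254 bp at MECOM, 31352 bp at LMX1B and 24518 bp at HOXC11, among those reported here. The whole window of HOXC11, a homeobox gene of posterior body patterning, lay under an SB Kac peak of 100848 bp, the longest at any promoter in that list. IRX1 and IRX2, homeobox genes of nephron segments, had no peak in any list.

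Paralogs of the 9 genes, many of which act in other organs, had peaks about as often as genes at large but over a larger share of the window. Of 35 paralogs, 32, 32 and 31 had a peak of control Kac, SB Kac and Kbz in the window and 26, 28 and 22 at the promoter, against 84.5%, 83.1% and 75.2% and against 72.8%, 71.9% and 60.3% of all genes. Their median shares of the window were 17.0%, 17.8% and 4.59%, against 7.02%, 6.88% and 2.37% of all genes. These medians are near those of the 9 genes (16.7%, 21.8% and 5.06%). EYA4 had 28006 bp under SB Kac, LHX2 24255 bp, GATA4 21188 bp and GATA2 21185 bp, while PAX1 and PAX4 had no peak in any list. Of 12 liver transcription factors, 11 had a peak of each list in the window and 9, 9 and 7 at the promoter, with CEBPA (12332 bp under SB Kac), NR5A2 (10867 bp), CEBPB (10027 bp), NR0B2 (8260 bp) and PROX1 (8131 bp) the longest. The factors of the liver had median shares of 10.6%, 9.22% and 3.82% in the same order.

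**Figure D5:**
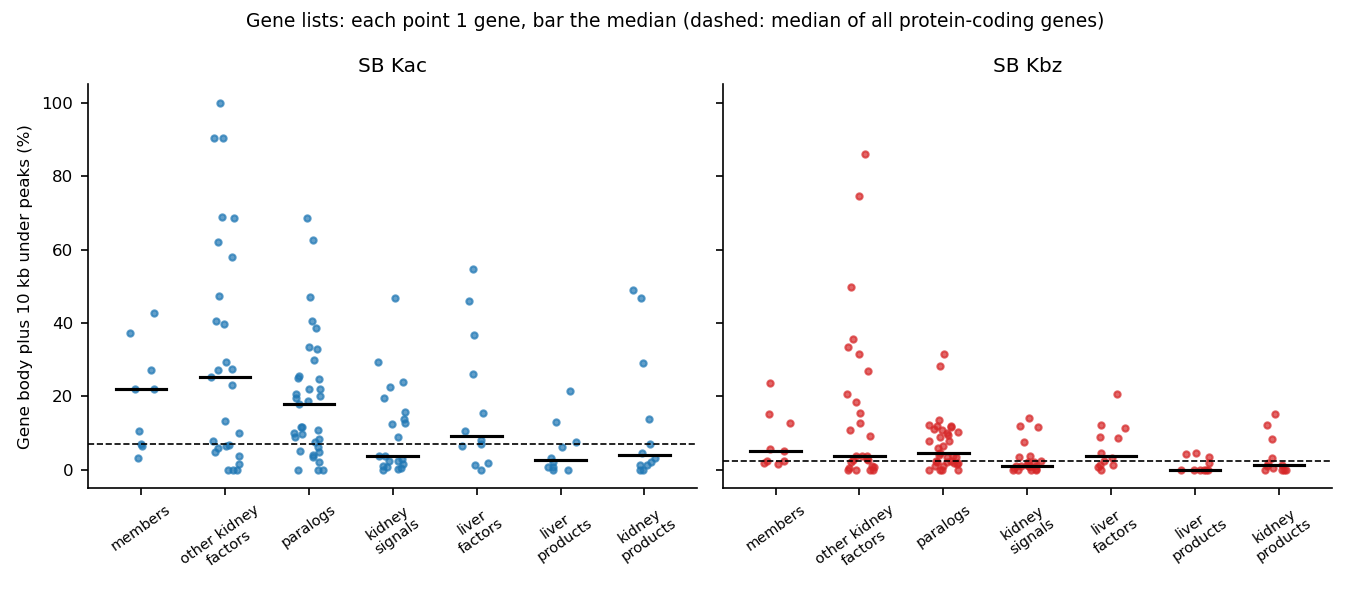
Share of the window under SB Kac peaks (left) and SB Kbz peaks (right), in percent, with 1 point per gene, a bar at the median of each gene list and a dashed line at the median of all protein-coding genes (6.88% and 2.37%). The medians of the 9 genes (members), the other kidney factors, the paralogs and the liver factors lie above the dashed line in both panels, and those of the kidney signals, the liver products and the kidney products lie below it.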

How the data were processed

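Peak lists of 3 of the 6 ChIP-seq libraries were used. According to the study's methods and the submitters' processing notes, chromatin was digested with micrococcal nuclease, single reads of 50 bp were aligned to hg38 (Bowtie2 2.2.6), duplicates were removed (SAMtools 0.1.19) and broad peaks were called per library (MACS2 2.1.1) at a false discovery rate of 0.01. The broad setting and background track are not given in the sources used here. The deposited score is an integer for display and was not used. The deposited fold, a linear ratio of read density over background, ranked peaks within a list. Thresholds were set on the −log10 p and −log10 q that were deposited. All are averages over a peak. The lowest deposited −log10 q was 1.31 per list, so the lists reach past the stated rate (highest q 0.0487, 0.0494 and 0.0485 for control Kac, SB Kac and SB Kbz). Peak lists carry no read totals, so depth is unknown, and a deeper library gives more and longer peaks.

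Peaks on 24 chromosomes were kept, and 3 peaks of control Kac lying elsewhere were dropped. No peak passed a chromosome end. Genes came from GENCODE 44, and an overlap needed 1 bp. Lengths under peaks were clipped to the window, while peak lengths were not. The 14 RefSeq promoters matched hg38 base for base. Overlaps were tested on simulated data and against bedtools 2.31.1 (60099 windows, 0 differed). Python 3.11.15, numpy 2.4.6, pandas 2.3.3 and matplotlib 3.10.9 were used.

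The 9 genes and all gene lists were chosen with earlier results of these data known. All 9 genes were named. From other lists, up to 5 genes with the most SB Kac bases and those without peaks were named, as were genes starting under a peak in a window. Some genes that this rule names are not reported here. Alternatives were −log10 q thresholds of 2 and 5, 15000 peaks per list, joining within 1 kb, other windows (gene body, 25 kb, canonical transcript), peak midpoints, removal of neighbours' peaks, and promoters of 1 kb, of any transcript or at the TSS.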

Additional observations from a re-analysis of the deposited data

How the results depend on the processing

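No paired analysis was possible because the groups hold a single library, so no replicate could be left out either. Of 102 recomputed summary values 84 stayed within 1.5 times the reported one. The other 18 came from fewer peaks or shorter windows, by construction. At a −log10 q of at least 5, 4 genes kept a control Kac promoter peak, 5 had Kbz in the window and 2 at the promoter, 5 had Kac in both conditions, and the bases under control Kac, SB Kac and Kbz were 53291, 64937 and 13902, with 44034 in both Kac lists and 13902 in both Kbz and SB Kac. With 15000 peaks per list, 5 genes had control Kac in the window, 4 at the promoter and 5 Kac in both conditions, and control Kac covered 50912 bp, SB Kac 58951 and both 37675. For promoter peaks and for Kac in both conditions, all-gene shares were not computed at these settings, and neither were all-gene lengths under peaks. In the gene body alone, control Kac covered 71781 bp, Kbz 19226 and both Kbz and SB Kac 19226. Of 297 recomputed values of single genes 55 moved by more than 1.5 times. The 1 Kbz peak at PAX8 was already lost at a −log10 q of 2.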

Other observations

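Signalling genes of kidney development had peaks in their windows about as often as genes at large, over a smaller share of longer windows. Of 21 such genes, 19, 20 and 17 had a peak of control Kac, SB Kac and Kbz in the window and 17, 17 and 12 at the promoter, against 84.5%, 83.1% and 75.2% and against 72.8%, 71.9% and 60.3% of all protein-coding genes. Their median shares of the window were 5.50%, 3.65% and 1.08%, below the all-gene medians of 7.02%, 6.88% and 2.37%. The median window was 73530 bp long, against 47471 bp over all genes. In length under peaks their medians were 5535, 5955 and 1715 bp, above the all-gene 4413, 4272 and 1675 bp. The longest stretches under SB Kac were 48618 bp at SLIT2, a guidance cue, 35480 bp at ITGA8, an integrin of the metanephric mesenchyme, 26380 bp at BMP7, 14122 bp at FGF8 and 12971 bp at WNT11. NOTCH2 had no peak in any list. Outside the naming rule, and chosen after their values were seen, GDNF, the ligand of the ureteric bud, had 1828, 1344 and 454 bp under control Kac, SB Kac and Kbz, and its receptor RET had 11611, 6431 and 2693 bp.

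Of 12 markers of the differentiated kidney, 11 had a control Kac peak in the window, 10 had SB Kac and 8 had Kbz. Over all protein-coding genes these shares were 84.5%, 83.1% and 75.2%. At the promoter 8, 6 and 3 of the markers had a peak, against 72.8%, 71.9% and 60.3% of all genes. The markers thus had promoter peaks less often than genes at large in SB Kac and, more clearly, in Kbz. The control Kac count, 8 of 12, was close to the all-gene share. The summed length was 153448 bp in control Kac, 90704 bp in SB Kac and 24192 bp in Kbz, while the median was 5580, 5346 and 1494 bp. The markers named next were also chosen after their values were seen. CUBN, the endocytic receptor cubilin of the proximal tubule, had 65279, 22288 and 5484 bp, which makes up most of the gap between the Kac sums. SLC34A1, a phosphate transporter of the same segment, had 21065, 19373 and 6051 bp, and LRP2, the partner receptor megalin, had 4963, 11787 and 3313 bp. UMOD, the gene of uromodulin, had no peak in any list. With 1 library per group, the difference between the Kac lists at these genes was not tested.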
